A study of Mus musculus with 6 samples.

Results

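The Rab genes encode the largest family of Ras-related small GTPases. The 59 members described here were all RefSeq GRCm38 protein-coding genes whose symbol is Rab followed by a number and an optional letter, out of 21887 protein-coding genes of the autosomes and sex chromosomes. H3K27ac, the acetylated form of lysine 27 on histone H3 that marks active promoters and enhancers, had been mapped by CUT&RUN, which releases DNA beside an antibody-bound mark with a tethered nuclease. Primary hematopoietic stem cells had been taken from the bone marrow of mice, and 3 libraries came from Ppp2ca-deficient mice (KO) and 3 from wild-type mice (WT). Ppp2ca encodes a catalytic subunit of the serine/threonine phosphatase PP2A. The age and strain of the mice, the part of Ppp2ca that was removed and any driver of the deletion were not stated in the labels used here. A library was counted as 1 mouse, but the labels number no animals. In the pooled cells of a library, more cells with a mark and a stronger mark per cell cannot be told apart.

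A Rab protein cycles between a GTP-bound form that sits on a membrane and recruits effectors and a GDP-bound form that is extracted by a carrier protein. Guanine nucleotide exchange factors switch it on, GTPase-activating proteins switch it off, and each Rab marks its own compartment, such as the early endosome (Rab5), the late endosome (Rab7), the recycling endosome (Rab11) or the Golgi (Rab1, Rab2, Rab6). Some members run this traffic in nearly every cell. Others serve specialised secretion: Rab3 proteins act on synaptic vesicles and secretory granules, Rab27 proteins on the granules of blood cells and melanocytes, and Rab25 in epithelia. From such textbook expression 29 members were classed as widely expressed and 20 as tissue-restricted. Of the restricted members, 8 were neural or neuroendocrine, 3 epithelial and 9 of secretory, pigment or blood cells. The other 10 members were not classed.

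The deposited data were 1 list of called peaks per library, with 50453, 34016 and 35629 peaks in KO replicates 1 to 3 and 22066, 29945 and 21917 in WT replicates 1 to 3. The lists hold no read totals. The share of peaks passing a q-value of 0.05 was 43.9 to 66.6% of the KO lists and 15.7 to 16.7% of the WT lists, and the part of list length and depth in the results below was not tested. Any peak touching the span of a gene or the 1 kb on either side made that gene marked. Over all genes, 11759 ± 900 were marked in KO and 9347 ± 816 in WT libraries (SD, n = 3 each). Every KO library exceeded every WT library, with a difference of 2412 genes and a two-sided exact permutation p of 0.1, the smallest that 3 against 3 allows. Ppp2ca itself was marked in all 6 libraries, over 1606 to 1881 bp in KO and 786 to 1232 bp in WT, which checks no genotype because the deleted part is unknown. Of 12 stem and progenitor markers, 7 to 10 were marked in KO and 8 or 9 in WT libraries, and Kit, Mecom, Runx1, Tal1 and Meis1 were marked in all 6. Ly6a, which encodes the stem cell antigen Sca-1, had no peak in any. Lists of 6 markers each were checked for other cells. Of the lymphocyte list 1 or 2 were marked in KO and 1 or 2 in WT libraries, of the neuronal list 1 to 3 in KO and 2 or 3 in WT, and of the epithelial list 2 or 3 in KO and 1 to 3 in WT. Of the myeloid list 2 to 4 were marked in KO and 1 to 3 in WT libraries, with a summed width of 2661 to 4476 bp in KO and 1224 to 2324 bp in WT, and Ly6g and Elane had no peak. Of the erythroid list 4 or 5 were marked in KO and 1 to 5 in WT libraries, with 2551 to 5292 bp in KO and 819 to 1121 bp in WT. The stem and progenitor list summed to 12692 to 22367 bp in KO and 9731 to 11004 bp in WT, and the part of other cells in the results was not tested.

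Most Rab genes carried H3K27ac. In KO replicates 1 to 3, 51, 48 and 48 of the 59 were marked, against 41, 41 and 37 in WT replicates 1 to 3. The genotypes did not overlap, with a mean share of 83.1% ± 2.94 in KO and 67.2% ± 3.91 in WT libraries (SD, n = 3 each). Over all genes the shares were 53.7% ± 4.11 in KO and 42.7% ± 3.73 in WT libraries. All 6 libraries marked 32 members (54.2%), where 27.9% of all genes were marked in all 6. No library marked 6 members (10.2%), against 32.9% of all genes. The members without a peak were Rab15, Rab25, Rab34, Rab39b, Rab3b and Rab9b. The number of members marked in more KO than WT libraries was 19 (32.2%), beside 28.0% of all genes, and 2 members (3.39%), Rab17 and Rab3c, went the other way, beside 7.99%.

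**Figure D1:**
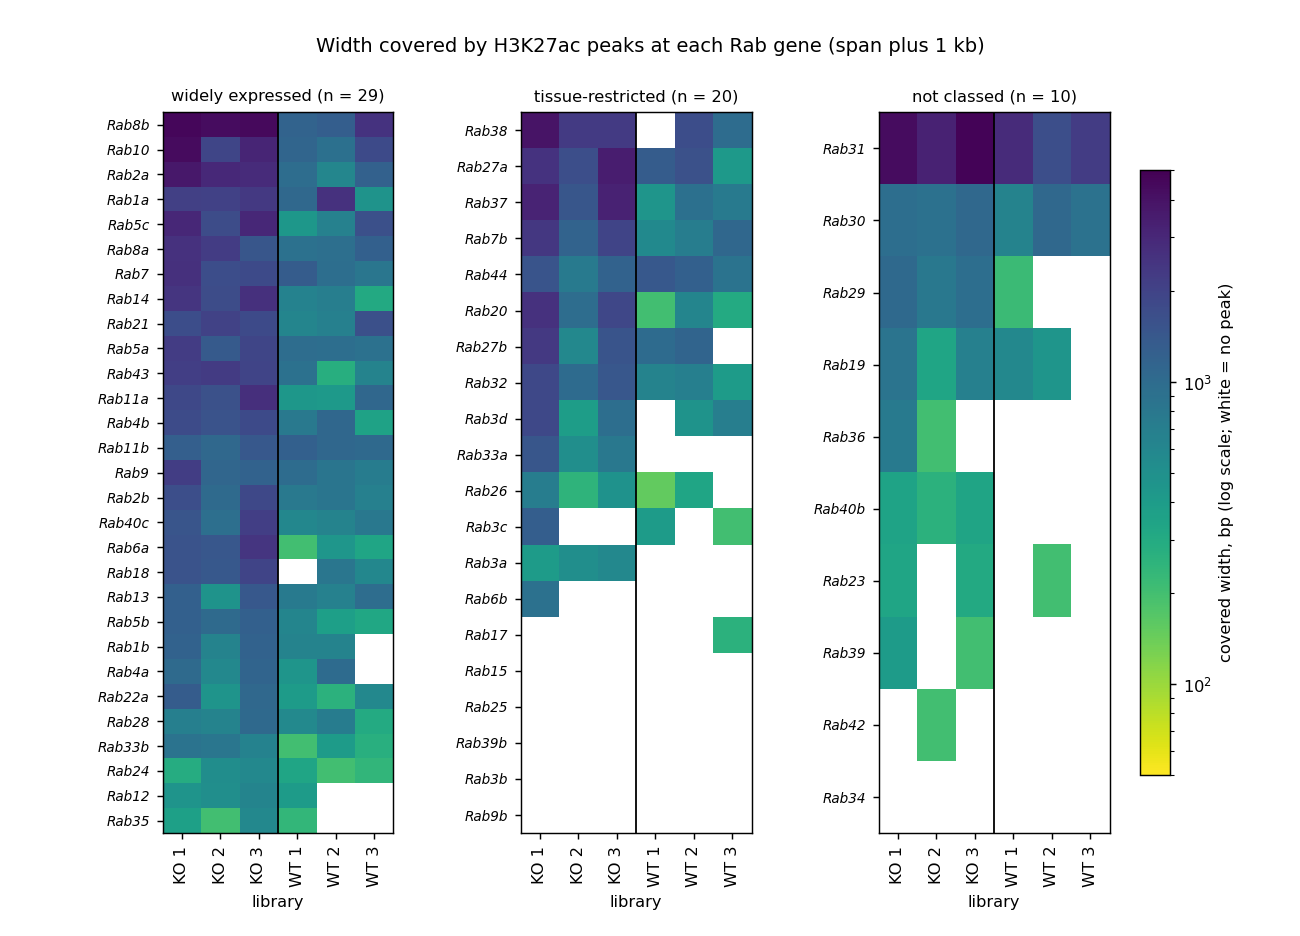
Width covered by H3K27ac peaks at each of the 59 Rab genes (span plus 1 kb) in the 3 KO and 3 WT libraries, in bp on a log colour scale, white where a library had no peak. The widely expressed members were filled in almost every column, and 5 restricted members and Rab34 were empty in all 6 libraries.

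The widely expressed share was the higher one in every library. Of the 29 widely expressed members, 29, 29 and 29 were marked in the KO libraries and 28, 27 and 25 in the WT libraries. Of the 20 restricted members, 14, 12 and 12 were marked in the KO libraries and 9, 10 and 10 in the WT libraries. The widely expressed share exceeded the restricted share by 30.0, 40.0 and 40.0 percentage points in KO replicates 1 to 3 and by 51.6, 43.1 and 36.2 points in WT replicates 1 to 3, with a mean of 40.1 ± 7.17 over the 6 libraries (SD). The excess had overlapping ranges in the genotypes, 36.7 ± 5.77 points in KO and 43.6 ± 7.69 in WT (SD, n = 3 each). Marked in all 6 libraries were 24 of 29 widely expressed and 6 of 20 restricted members. No widely expressed member lacked a peak altogether, whereas 5 restricted members did.

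Within the restricted members the groups stood far apart. The 9 members of secretory, pigment and blood cells were all marked in every KO library, and 6, 8 and 7 of them in WT replicates 1 to 3. Their shares equalled those of the widely expressed members in the KO libraries, where all were marked, and were lower in WT, at 66.7, 88.9 and 77.8% against 96.6, 93.1 and 86.2%. Of the 8 neural and neuroendocrine members, 4, 2 and 2 were marked in KO and 2, 1 and 1 in WT libraries, below the share of all genes in each library. None of these 8 was marked in all 6 libraries and 4 were marked in none. Of the 3 epithelial members, 1 was marked in each KO library, and 1, 1 and 2 in the WT libraries. When every library was reduced to its 21917 best peaks, the restricted counts stayed at 14, 12 and 12 in KO and 9, 10 and 10 in WT libraries, and 29, 29 and 28 widely expressed members were marked in KO against 28, 26 and 25 in WT libraries.

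**Figure D2:**
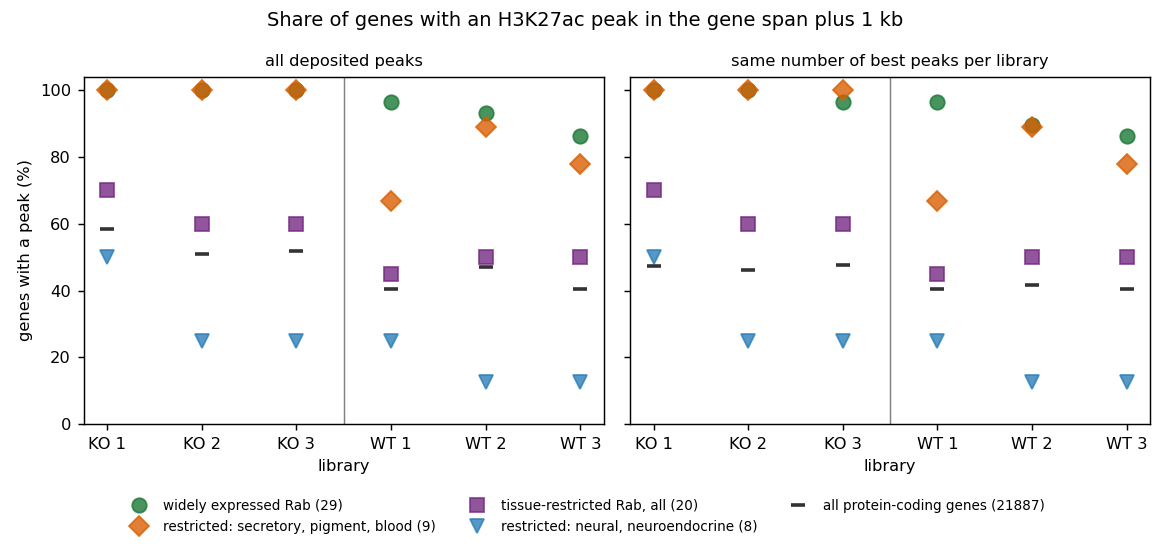
Share of genes with a peak in the span plus 1 kb, in percent, in each KO and WT library, for all deposited peaks (left panel) and for the same number of best peaks per library (right panel). Symbols stand for classes of Rab genes and the dash for all 21887 genes. The widely expressed members and those of secretory, pigment and blood cells lie above the dash in all 6 libraries, and the neural and neuroendocrine members below it except in KO replicate 1 of the right panel.

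Both classes had similar span lengths. The median span was 23.3 kb for widely expressed, 25.0 kb for restricted and 17.2 kb for all genes. Between 10 and 30 kb, 15 of 19 widely expressed and 3 of 8 restricted members were marked in all 6 libraries, beside 29.3% of all genes of that length. At 30 kb and over the counts were 8 of 8 widely expressed and 3 of 8 restricted members, beside 40.5% of all genes. Under 10 kb they were 1 of 2 and 0 of 4, beside 14.9%.

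Close relatives on either side of this division could be set side by side. These pairs were chosen after their values were seen. Rab9, which returns receptors from late endosomes to the Golgi, had 2171, 1086 and 1185 bp of peaks in KO replicates 1 to 3 and 978, 829 and 721 bp in WT replicates 1 to 3, while its neural relative Rab9b had none. Rab11b, a recycling endosome Rab, had 1240, 1063 and 1418 bp in KO and 1212, 1071 and 1030 bp in WT libraries, with overlapping genotypes, while the epithelial Rab11 relative Rab25 had none. Rab6a, a Rab of the Golgi, had 1552, 1427 and 2464 bp in KO and 200, 448 and 336 bp in WT libraries, a KO mean 5.53 times the WT mean. Its neuronal relative Rab6b had 894 bp in KO replicate 1 and none elsewhere. In the Rab3 group, whose proteins tether secretory vesicles, Rab3b had no peak, Rab3a was marked in the KO libraries alone, Rab3c in KO replicate 1 and in WT replicates 1 and 3, and Rab3d in all KO libraries and WT replicates 2 and 3.

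The bases before the start of some of these genes are shown to set marked and unmarked relatives side by side. The 200 bases before the outermost listed transcription start are printed from RefSeq (GRCm38.p6), 5′ to 3′ on the gene's strand, with each CpG in capitals. They come from Rab9 (chrX:166479868-166480067, minus strand), Rab9b (chrX:136868557-136868756, minus strand), Rab11b (chr17:33760487-33760686, minus strand), Rab25 (chr3:88548280-88548479, minus strand), Rab3a (chr8:70754503-70754702, plus strand), Rab3b (chr4:108878870-108879069, plus strand) and Rab32 (chr10:10558208-10558407, minus strand).
Rab9: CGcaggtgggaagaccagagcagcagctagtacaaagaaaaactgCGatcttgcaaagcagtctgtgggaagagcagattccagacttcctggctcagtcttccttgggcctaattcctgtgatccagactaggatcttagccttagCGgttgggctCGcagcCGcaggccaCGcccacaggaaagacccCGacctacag
Rab9b: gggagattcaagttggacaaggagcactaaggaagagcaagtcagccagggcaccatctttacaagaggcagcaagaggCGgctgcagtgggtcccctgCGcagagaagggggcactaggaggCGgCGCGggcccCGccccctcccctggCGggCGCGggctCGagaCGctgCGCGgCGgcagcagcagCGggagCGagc
Rab11b: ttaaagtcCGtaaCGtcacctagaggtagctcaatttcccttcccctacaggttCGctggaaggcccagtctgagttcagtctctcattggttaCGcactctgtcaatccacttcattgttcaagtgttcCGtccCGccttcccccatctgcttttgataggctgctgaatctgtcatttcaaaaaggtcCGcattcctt
Rab25: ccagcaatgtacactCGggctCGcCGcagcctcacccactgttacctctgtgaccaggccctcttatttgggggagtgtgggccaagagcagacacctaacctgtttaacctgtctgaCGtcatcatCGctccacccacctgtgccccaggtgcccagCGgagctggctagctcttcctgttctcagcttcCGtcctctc
Rab3a: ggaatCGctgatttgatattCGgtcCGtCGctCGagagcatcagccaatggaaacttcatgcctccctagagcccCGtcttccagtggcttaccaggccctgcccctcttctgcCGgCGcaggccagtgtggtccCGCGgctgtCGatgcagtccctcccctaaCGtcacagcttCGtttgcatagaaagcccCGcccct
Rab3b: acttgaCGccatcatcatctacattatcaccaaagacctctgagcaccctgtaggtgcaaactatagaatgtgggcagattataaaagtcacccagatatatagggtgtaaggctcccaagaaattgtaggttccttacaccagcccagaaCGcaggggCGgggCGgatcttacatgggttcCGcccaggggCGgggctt
Rab32: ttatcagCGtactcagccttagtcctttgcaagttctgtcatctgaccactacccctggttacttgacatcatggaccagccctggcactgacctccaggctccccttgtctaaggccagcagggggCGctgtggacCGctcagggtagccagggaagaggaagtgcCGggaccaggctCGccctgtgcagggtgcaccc
The marked Rab9 held 7 CpG and its unmarked relative Rab9b 16, while the marked Rab11b and the unmarked Rab25 held 7 each. Peaks overlapped the printed bases of Rab11b in 3 KO and 3 WT libraries, of Rab9 in 2 KO and 3 WT, of Rab3a in 3 KO and no WT, and of Rab32 in 1 KO and no WT library, since the Rab32 peaks lay mostly inside the gene. Those of Rab9b, Rab25 and Rab3b met no peak. Rab3a, marked in the KO libraries, held 14 CpG and the unmarked Rab3b 6, and Rab32 held 5.

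Among the widely expressed members, Rab8b had the largest mean covered width. Rab8b, which acts in transport from the Golgi to the plasma membrane, had 4628, 4298 and 4486 bp in KO replicates 1 to 3 and 1147, 1269 and 2528 bp in WT replicates 1 to 3. Every KO library lay above every WT library, and the KO mean was 2.71 times the WT mean. The region that all 6 libraries shared, chr9:66915227-66916824, was not at the start and had its nearest summit 3194 bp inside the gene. Rab10, which directs polarised exocytosis and glucose transporter delivery, had 4360, 1925 and 3097 bp in KO and 1119, 908 and 1774 bp in WT libraries. Rab2a, a Rab of the Golgi, had 3722, 2949 and 2860 bp in KO and 957, 600 and 1199 bp in WT libraries. Both were wider in every KO library, at ratios of 2.47 for Rab10 and 3.46 for Rab2a. Rab5c, of early endosomes, had 3014, 1703 and 3017 bp in KO and 438, 655 and 1623 bp in WT libraries, again without overlap. Rab1a, needed for transport from the endoplasmic reticulum to the Golgi, had 2071, 2046 and 2325 bp in KO and 1047, 2605 and 472 bp in WT libraries. For Rab1a the genotypes overlapped, because WT replicate 2 had the widest coverage of all 6.

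The 5 widely expressed members that were not marked in all 6 libraries were Rab12, Rab18, Rab1b, Rab35 and Rab4a, and each was marked in all 3 KO libraries. Rab18, which acts on lipid droplets, lacked a peak in WT replicate 1 alone, and Rab1b and Rab4a in WT replicate 3 alone. Rab12 and Rab35 had no peak in WT replicates 2 and 3.

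Of the restricted members, 6 were marked in all 6 libraries, and 5 of them belong to secretory, pigment or blood cells. Rab27a, which docks the lytic granules of lymphocytes and the melanosomes of pigment cells, had 2545, 1642 and 3431 bp in KO and 1319, 1595 and 414 bp in WT libraries. The genotypes did not overlap, but KO replicate 2 and WT replicate 2 lay close together. Rab37, found on mast cell granules, had 3160, 1452 and 3205 bp in KO and 451, 917 and 765 bp in WT libraries, a ratio of 3.66. Rab32, which works with Rab38 in making melanosomes, had 1827, 1000 and 1442 bp in KO and 636, 689 and 400 bp in WT libraries. Rab27a, Rab37 and Rab32 were thus each wider in every KO library. Rab7b, a late endosomal Rab of monocytes, had 2358, 1145 and 1951 bp in KO and 558, 706 and 1071 bp in WT libraries. Rab20, classed as epithelial and also known from phagosome maturation, had 2598, 958 and 1873 bp in KO and 200, 619 and 302 bp in WT libraries, a ratio of 4.84. Both were wider in every KO library.

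At Rab44 the genotypes overlapped. It encodes a large Rab with calcium-binding domains that takes part in mast cell granule release, and it had 1508, 758 and 1174 bp in KO and 1413, 1222 and 865 bp in WT libraries. The ratio of the KO to the WT mean was 0.983, the only one below 1 among the 32 members marked in all 6 libraries. Rab44 was also the 1 member of 59 (1.69%) with fewer peaks in every KO library than in every WT library, at 2, 2 and 2 in KO and 4, 3 and 3 in WT, where 0.530% of all genes showed that order. Its shared region, chr17:29113668-29114798, was found in all 6 libraries and lay across the low-coordinate gene end. In WT replicate 1 no single peak crossed that end, and 1 peak lay on each side of it. The reverse order of peak numbers, more in every KO library, held for 5 members (8.47%), beside 10.2% of all genes.

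Covered width separated the genotypes at many members, in 1 direction. Every KO library had more covered base pairs than every WT library at 31 members (52.5%), where 33.5% of all genes did, and the reverse held for no member, where it held for 0.311% of all genes. Among the 32 members marked in all 6 libraries it held for 24 (75.0%), close to the 69.7% of all genes marked in all 6. The median ratio of the KO to the WT mean over these 32 was 2.29, beside 2.18 over all genes marked in all 6. By class, 20 of 29 widely expressed, 8 of 20 restricted and 3 of 10 unclassed members were wider in every KO library. Summed over the family, peaks covered 89040, 57434 and 80102 bp in KO replicates 1 to 3, against 30038, 33647 and 30421 bp in WT replicates 1 to 3. The number of peaks was 172, 124 and 138 in KO and 92, 92 and 88 in WT libraries, and the median width of a peak at a member was 382.5 bp in KO and 278 bp in WT.

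The 5 members with the largest difference in mean width between non-overlapping genotypes were Rab8b at 2823 bp, Rab2a at 2258 bp, Rab38 at 1942 bp, Rab37 at 1895 bp and Rab10 at 1860 bp. Rab38, which like Rab32 serves melanosomes, had 3902, 2282 and 2296 bp in KO replicates 1 to 3 and 0, 1671 and 983 bp in WT replicates 1 to 3. WT replicate 1 had no Rab38 peak, and the widest WT library still lay below the narrowest KO library. In all 3 KO libraries the best-ranked Rab38 peak touched the stretch chr7:88481732-88483194, which WT replicates 2 and 3 also marked.

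**Figure D3:**
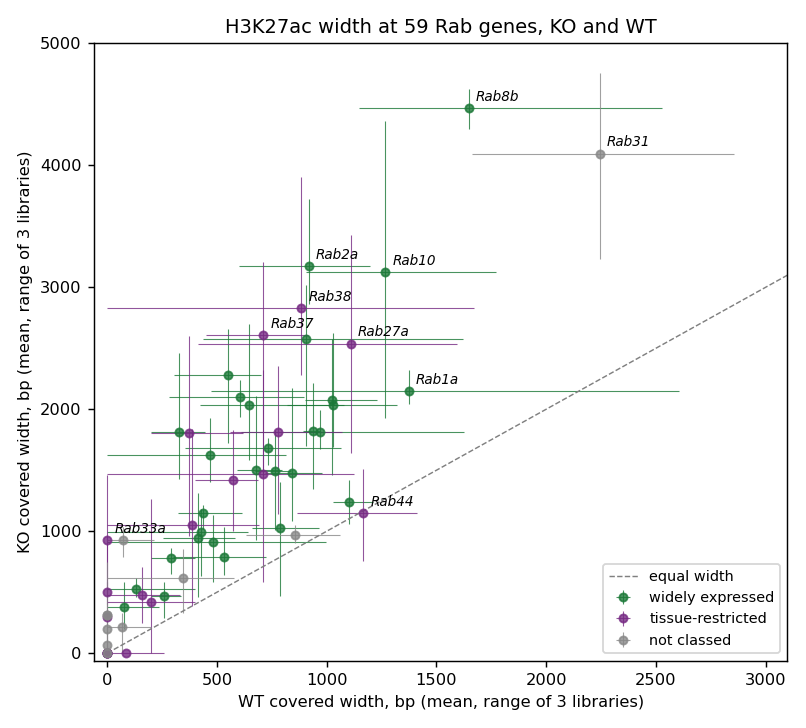
Mean covered width of the 59 Rab genes in KO libraries (vertical axis, bp) against WT libraries (horizontal axis, bp), with bars from the lowest to the highest of the 3 libraries of a genotype and colours for the classes. Most members lie above the dashed line of equal width, Rab8b is highest and Rab44 lies beside the line.

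Only 3 members were marked in all KO libraries and no WT library, a share of 5.08% where 3.15% of all genes were, and no member showed the reverse, beside 0.224% of all genes. Rab3a, the synaptic vesicle Rab, had 402, 516 and 581 bp in KO replicates 1 to 3 and 0 bp in each WT library. The best-ranked peak of each KO library fell in 1 region at the start, chr8:70754315-70754895, with a fold over background of 3.85 to 4.21 as the authors' caller gave it, and each passed a q-value of 0.05. KO replicate 2 had a further peak of 200 bp at chr8:70755028-70755227, with a fold of 2.53 and a −log10 q-value of 0.217, which did not pass. Rab33a, a Golgi-related Rab of lymphocytes and neurons, had 1463, 517 and 796 bp in KO and 0 bp in each WT library. Its shared region, chrX:48513408-48514470, crossed the low-coordinate end of the gene span, with its nearest summit 5175 bp upstream of the listed start, and lay inside the window of the neighbouring gene Aifm1, which encodes a mitochondrial flavoprotein. Rab40b, which joins a ubiquitin ligase, had 346, 259 and 338 bp in KO and 0 bp in each WT library. Its −log10 q-values were 1.73, 1.02 and 1.03 in KO replicates 1 to 3, so that only KO replicate 1 passed a q-value of 0.05. With equal numbers of peaks per library Rab40b was no longer marked in all KO libraries. The Rab40b peaks shared no place across the KO libraries, with summits 19129 and 18973 bp inside the gene in KO replicates 1 and 3 and 375 bp upstream of the start in KO replicate 2. Without WT replicate 1 the count became 6, adding Rab12, Rab29 and Rab35. The share of all genes was not computed for that setting.

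With the lists reduced to peaks passing a q-value of 0.05, the genotypes stood further apart. Of the 59 members, 49, 42 and 44 were marked in KO replicates 1 to 3 and 12, 21 and 15 in WT replicates 1 to 3. All genes also stood further apart, with 47.4, 41.6 and 48.5% marked in the KO and 13.5, 16.9 and 13.7% in the WT libraries. The mean share of members was 76.3% in KO and 27.1% in WT libraries, beside 45.9 and 14.7% of all genes. In all 6 libraries 7 members (11.9%) were marked, beside 6.10% of all genes, and 9 (15.3%) in none, beside 47.1%. In the KO libraries alone 16 members (27.1%) were marked, beside 15.3% of all genes. They comprised 9 of 29 widely expressed and 7 of 20 restricted members. The 9 members of secretory, pigment and blood cells were all marked in every KO library, against 1, 3 and 1 in WT replicates 1 to 3. A q-value depends on the depth of a library, so these counts carry any difference in depth.

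Region by region, the peaks of the 6 libraries merged into 296 regions at the members, of which 179 (60.5%) came from a single library. Regions found in all 6 libraries numbered 28, at 26 genes (44.1% of the family), where 21.9% of all genes had one. They lay at 19 of 29 widely expressed members, at the restricted Rab7b, Rab20, Rab26, Rab32 and Rab44, and at the unclassed Rab30 and Rab31. A region counted for a gene once any part of it touched the gene's window, for members and for all genes alike. The Rab26 region reached it in this way: it lay in the window of the neighbour Traf7, and its WT replicate 3 peak lay outside the Rab26 window, so Rab26 itself was marked in 5 libraries. Regions found in all KO libraries and no WT library numbered 12, at 10 genes (16.9%), beside 8.89% of all genes. No member had a region found in all WT libraries and no KO library, beside 0.0640% of all genes.

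These 10 genes comprised 3 widely expressed members, Rab2a, Rab5c and Rab14, and 7 restricted members, Rab3a, Rab3d, Rab7b, Rab27a, Rab27b, Rab33a and Rab37. Rab27a held 2 such regions, chr9:73072875-73073620 and chr9:73085473-73086470, with nearest summits 8753 and 21701 bp from a listed start. A WT replicate 1 peak, chr9:73072650-73072849, ended directly before the first of them without touching it. Rab5c also held 2, chr11:100721192-100721625 and chr11:100722036-100722608, with nearest summits 16710 and 15731 bp from the start. Rab27b, a granule Rab of platelets and mast cells, held chr18:70000175-70000944 with a fold of 4.03 to 5.38. Rab3d, a Rab of secretory granules, held chr9:21918021-21918617 with a nearest summit 8 bp from the start. The Rab37 region, chr11:115119439-115120312, lay in the window of the neighbour Cd300lf. A WT replicate 2 peak, chr11:115119187-115119386, ended directly before the Rab37 region. Of the 8 KO-only regions at genes with a listed start, 2 lay at the start, those of Rab3a and Rab3d. Of the 23 regions shared by all 6 libraries at such genes, 17 lay at the start.

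The strongest peak of a gene sat at its start mainly in the widely expressed class. Starts were listed for 48 members, 26 of them widely expressed, 14 restricted and 8 not classed. The 14 were 7 neural or neuroendocrine members, 3 epithelial members and only 4 of the 9 of secretory, pigment and blood cells. Each gene and library with a peak gave 1 strongest peak. For widely expressed members its summit lay within 1 kb of a start in 65 of 78 KO cases (83.3%) and 53 of 73 WT cases (72.6%). For restricted members this held in 7 of 20 KO cases (35.0%) and 3 of 14 WT cases (21.4%). Over all genes the shares were 67.0% in KO and 55.4% in WT. The cases of 1 gene in several libraries are not independent.

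**Figure D4:**
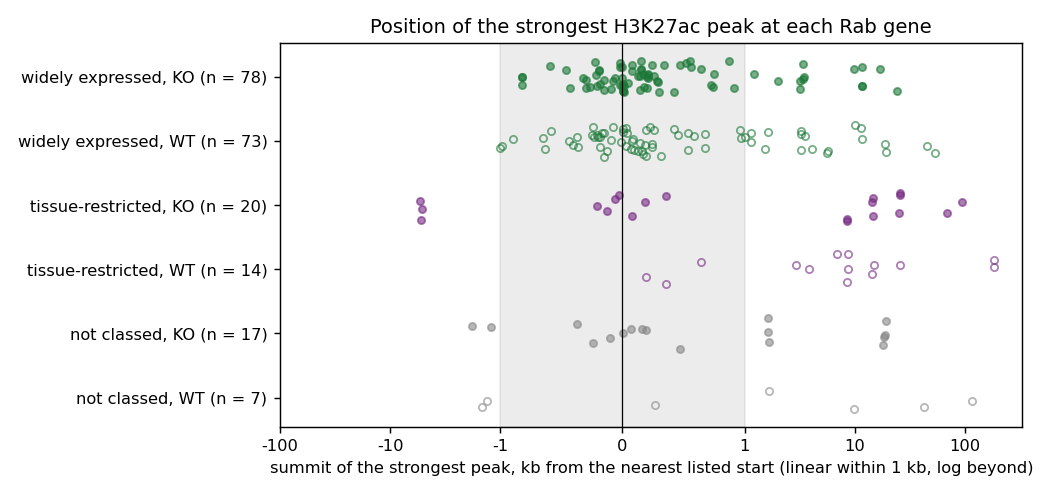
Distance in kb from the nearest listed start to the summit of the strongest peak of each Rab gene in each library, linear within 1 kb and logarithmic beyond, for the classes in KO (filled) and WT (open) libraries. The widely expressed members cluster in the shaded 1 kb on either side of the start, and most restricted members lie several kb inside or upstream of the gene.

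With only peaks within 1 kb of a listed start counted, the widely expressed share exceeded the restricted share by a mean of 68.2 percentage points, over 26 and 14 members. The restricted Rab7b, Rab26, Rab27b, Rab37, Rab38 and Rab44 are not among the 14. All of these but Rab26 belong to secretory, pigment and blood cells, the restricted group most often marked over the gene span. Of 48 members, 32, 34 and 33 were marked at the start in KO replicates 1 to 3 and 25, 23 and 21 in WT replicates 1 to 3. Of all genes with a listed start, 45.7, 41.5 and 44.1% were marked there in KO and 27.8, 31.0 and 28.3% in WT libraries, also without overlap. In all 6 libraries 16 (33.3%) were marked there, beside 18.7% of all genes with a listed start, and 11 (22.9%) in none, beside 49.5%. The 16 comprised 15 of 26 widely expressed members and 1 of 14 restricted members, Rab32. The 11 held 9 of the 14 restricted members, no widely expressed member, and Rab23 and Rab34. At the start 2 members (4.17%), Rab3a and Rab3d, were marked in all KO libraries and no WT library, beside 4.38% of all genes.

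Promoter sequence differed between the classes in its CpG content. The 300 bases from 250 before to 50 after a single listed start of each gene were used. The ratio of observed to expected CpG had a median of 0.843 in widely expressed members, 0.617 in restricted members and 0.608 in all genes. It exceeded 0.6 in 24 of 26 widely expressed and 7 of 14 restricted members, beside 50.7% of all genes. Members marked at the start in all 6 libraries had a median of 0.757 and those marked there in none 0.591, beside 0.85 and 0.282 over all genes. Of the 11 members marked at the start in no library, 5 exceeded 0.6. These were Rab34, Rab15, Rab6b, Rab39b and Rab23, at 0.817, 0.882, 1.02, 1.06 and 1.13. Rab32, Rab9 and Rab5b, at 0.406, 0.425 and 0.596, lay below 0.6 and were marked there in all 6.

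The CCAAT box, searched as CCAAT on both strands, was found in 15 of 26 widely expressed (57.7%) and 2 of 14 restricted promoters (14.3%), beside 38.4% of all promoters. The TATA box, searched as TATAAA on both strands, was found in 0 of 26 widely expressed and 2 of 14 restricted promoters, those of Rab3b and Rab39b, beside 12.9% of all promoters. The ETS core CCGGAAG was found in 4 widely expressed and 1 restricted promoter, beside 12.3% of all, and the E-box CACGTG in 3 and 1, beside 8.05%. For Rab3a the bases searched were chr8:70754852-70755151, around another listed start than the one whose bases are printed above. The printed Rab3a bases contain CCAAT but were not part of these counts. A match of letters is not a bound site.

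**Figure D5:**
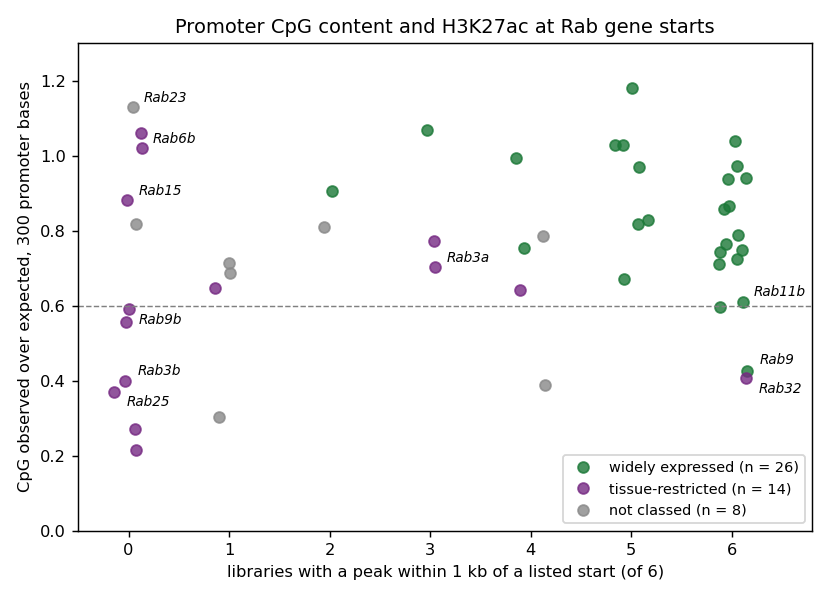
Ratio of observed to expected CpG in 300 promoter bases (vertical axis) against the number of libraries, of 6, with a peak within 1 kb of a listed start (horizontal axis, points spread slightly sideways), for 48 Rab genes coloured by class. Most widely expressed members gather at 4 to 6 libraries above the dashed line at 0.6. At 6 libraries Rab9 and Rab32 lie below the line and Rab5b just below it. At 0 libraries Rab15, Rab6b, Rab23, Rab34 and Rab39b lie above the line.

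Among the unclassed members, Rab31, which acts between the Golgi and endosomes, had 4302, 3232 and 4757 bp in KO and 2857, 1664 and 2210 bp in WT libraries, the largest mean over the 6 libraries in the family, 3170 bp, and it was named after its values were seen. Rab30, a Golgi Rab, had 948, 900 and 1052 bp in KO and 633, 1061 and 879 bp in WT libraries, with overlapping genotypes. Rab29, a partner of the kinase LRRK2, had 1039, 789 and 952 bp at its start in KO libraries and 215, 0 and 0 bp in WT libraries, a ratio of 12.9. Of the 10 unclassed members, 8, 7 and 7 were marked in KO and 4, 4 and 2 in WT libraries. With equal numbers of peaks per library these counts were 6, 4 and 4 in KO and 4, 4 and 2 in WT, and the genotypes then overlapped.

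The regulators and effectors of Rab proteins were also marked in the main. All 106 genes of the list matched by symbol, and 97, 88 and 91 were marked in KO replicates 1 to 3 against 77, 90 and 75 in WT replicates 1 to 3, so that the genotypes overlapped. In all 6 libraries 60 (56.6%) were marked, beside 27.9% of all genes and 54.2% of the Rab genes. The spans of the 106 ran from 2.98 kb at Rabac1 to 574 kb at Rabgap1l. Of all genes of 30 kb and over, 40.5% were marked in all 6 libraries, and the part of span length was not tested. Every KO library had more covered width than every WT library at 59 of the 106 (55.7%), beside 33.5% of all genes. Among all genes marked in all 6 libraries that share was 69.7%. The reverse held for none of the 106, beside 0.311% of all genes. More width in every KO library held for 5 of 8 delivery and prenylation genes and 15 of 29 exchange factors. It also held for 21 of 32 GTPase-activating proteins and 18 of 37 effectors.

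In each role the 2 genes with the largest mean width are given. Among delivery genes, Rabif, which binds nucleotide-free Rabs, had 1373, 1741 and 1123 bp in KO and 579, 463 and 505 bp in WT libraries, and Rabggtb, a subunit of the enzyme that attaches the lipid anchor, had 1222, 917 and 1288 bp in KO and 466, 0 and 598 bp in WT libraries. Both were wider in every KO library. Among exchange factors, Rin3, which activates Rab5, had 6154, 4052 and 5691 bp in KO and 3073, 4160 and 2868 bp in WT libraries, and Dennd1a, which activates Rab35, had 7544, 1625 and 3177 bp in KO and 1428, 1670 and 1050 bp in WT libraries. Both overlapped between the genotypes, at KO replicate 2. Among the GTPase-activating proteins, Tbc1d1, which acts on Rab10, had 6142, 4009 and 4633 bp in KO and 623, 2631 and 1538 bp in WT libraries without overlap. Tbc1d5, which acts on Rab7, had 8807, 4025 and 3929 bp in KO and 2857, 4255 and 2133 bp in WT libraries, with overlap. Among effectors, Myo5a, the myosin that Rab27a recruits to melanosomes, had 4351, 2466 and 3697 bp in KO and 800, 1525 and 802 bp in WT libraries without overlap. Fyco1, a Rab7 effector, had 3932, 2190 and 3482 bp in KO and 2030, 2206 and 1770 bp in WT libraries, with overlap.

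Of the 106, 2 were marked in all KO and no WT library, both effectors, where 3.15% of all genes were. Rilp, which links Rab7 to the dynein motor, had 1102, 1000 and 1048 bp in KO and 0 bp in each WT library. Micall1, an effector of Rab8 and Rab35 on recycling tubules, had 395, 200 and 600 bp in KO and 0 bp in each WT library. No regulator or effector showed the reverse, and Rin1, Sgsm3, Sytl4 and Mlph had no peak in any library. Mlph, melanophilin, is the adaptor between Rab27a and Myo5a in melanocytes.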

How the data were processed

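H3K27ac was measured by CUT&RUN in 6 libraries, 3 KO and 3 WT by their titles. The submitters' processing notes name MACS2, BWA, Trimmomatic, HOMER, deepTools and ChIPseeker and the build GRCm38/mm10, with no version. Parameters and any control library were not given in the labels. The deposited narrowPeak lists, 1 per library by the peak names, hold the authors' score, their fold over background (a ratio), −log10 p-value, −log10 q-value and summit offset. The smallest deposited −log10 p-value was between 2.005 and 2.006 in every list. Fold and q-value depend on depth and served only for description, ranking and filtering inside 1 list. Depth per library is unknown, since the lists hold no read totals.

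Peaks were intersected (minimum 1 bp) with the RefSeq GRCm38.p6 gene spans plus 1 kb, using Python 3.11.15, numpy 2.4.6, pandas 2.3.3 and scipy 1.17.1. Covered width was the number of base pairs under peaks in that window, and peaks overlapping by at least 1 bp in any library were merged into regions. Where 21 members share their window with another gene, a peak counted for both. Starts came from the RefSeq promoter table, which lists 48 of the 59 members and 17492 genes. The position of peaks within exons or introns was not analysed here.

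The number of marked genes was compared by a two-sided exact permutation test over 20 assignments. Its p-value measures only the spread between these libraries. Members, classes and lists were chosen with earlier results of these data known, so lists are described by counts beside the same over all genes, with no test. Named genes were members marked in 1 genotype only, the 5 widest widely expressed members, restricted members marked in all 6 libraries, members without a peak, the 5 largest differences without overlap, Ppp2ca, and, among regulators, those marked in 1 genotype only and the 2 widest per role. Others were named after their values were seen. Alternatives were q-value and −log10 q thresholds, equal numbers of peaks, other overlaps and windows, omission of single libraries and a replicate block. Peaks overlapping no other gene window were added after seeing the data. The overlap procedure was tested on simulated data.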

Additional observations from a re-analysis of the deposited data

How the results depend on the processing

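The difference of 2412 marked genes between KO and WT libraries kept its direction under every alternative tried, at 1348 to 6818 genes. The exact permutation p-value was 0.1, or 0.2 without KO replicate 1. With KO replicates set against WT replicates of the same number (replicate block) the difference was 2412 genes with an exact sign-flip p of 0.25, the smallest possible, and 9.33 Rab genes. Same-numbered libraries did not deviate together (correlations of −0.022, −0.003 and −0.007), so the numbers were not taken as pairs. The block could give no value for the other results.

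The Rab genes marked, 9.33 more in KO than in WT libraries, differed by 29.0 with q-values of at most 0.05, 20.7 with a −log10 q of at least 5, 6.67 with equal numbers of peaks, 7.0 with the span plus 5 kb and 13.3 around either gene end. Leaving out each library gave 8.0 to 10.0. The count of 3 members marked in KO libraries alone became 16, 12 and 1 with q-values of at most 0.05, a −log10 q of at least 5 and the span plus 5 kb, and 3 to 6 when a library was left out, the 6 without WT replicate 1. At a −log10 q of at least 5 the 12 held neither Rab3a nor Rab33a nor Rab40b. Of all genes, 15.3% were marked in KO libraries alone with q-values of at most 0.05, beside 3.15% with all peaks. With equal numbers of peaks 2 members (3.39%), Rab3a and Rab33a, were marked in KO libraries alone, beside 2.13% of all genes. Around a listed start these shares were 4.17% of members and 4.38% of all genes. For the other settings of this count the share of all genes was not computed. The excess of the widely expressed over the restricted share, 40.1 percentage points, was 31.1 and 26.0 at these q thresholds, 31.6 with the span plus 5 kb, 68.2 around a listed start and 31.3 with peaks overlapping no other gene window, a setting chosen after seeing the data. Leaving out each library gave 37.9 to 42.2 points. All differences kept their sign. The causes of these shifts were not tested, and the lists, which hold no read totals, do not show what depth limits.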

Other observations

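Several members owe their mark to peaks that also lie in the window of a neighbouring gene. Of the 59 members, 21 share their window with another protein-coding gene, and 10 lost the mark in at least 1 library when only peaks overlapping no other window were counted. Rab24 and Rab5b, marked in all 6 libraries, and Rab26, marked in 5, kept no library. Rab24 lies beside Nsd1 and Prelid1, Rab5b beside Pmel and Cdk2, and Rab26 beside Traf7. Rab13, Rab2b and Rab6a, marked in 6, kept 3 libraries each, Rab4b kept 2, Rab37 kept 5, Rab1b kept 3 of 5, and Rab33a kept 1 of 3. With this count 18 of 29 widely expressed and 5 of 20 restricted members were marked in all 6 libraries. The share of all genes under that count was not computed.

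The member with the highest peak fold differed between the lists, with folds taken from the submitters' peak calls. Within KO replicate 1 it was Rab13, at 8.59, and within KO replicates 2 and 3 it was Rab28, at 9.34 and 8.70. Within WT replicates 1 and 2 it was Rab11b, at 5.5 and 7.41, and within WT replicate 3 it was Rab2b, at 6.1. The strongest Rab13 peak also lay in the window of the neighbouring gene Rps27 in every library. Rab13 peaks overlapping no other gene window had folds of 2.88 to 3.19. At Rab28, a Rab of cilia, the strongest peak had a fold of 7.32, 9.34 and 8.70 in KO replicates 1 to 3 and 3.70, 5.05 and 4.38 in WT replicates 1 to 3. Rab28 was named after its values were seen, and folds from different lists are given as descriptions.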
